A study of Arabidopsis thaliana with 6 samples.

Results

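The genes described here are 9 histone methyltransferase genes of *Arabidopsis thaliana*, taken by gene identifier from the 27655 genes of the deposited table: *ATX1* (AT2G31650), *ATX2* (AT1G05830), *ATX3* (AT3G61740), *SDG2* (AT4G15180, also *ATXR3*), *SDG4* (AT4G30860, also *ASHR3*), *SDG8* (AT1G77300, also *ASHH2* and *EFS*), *SDG26* (AT1G76710, also *ASHH1*), *ATXR5* (AT5G09790) and *ATXR6* (AT5G24330). All 9 were found in the table, and all 9 passed the filter for testing (at least 1 TPM in at least 2 of the 6 libraries). *ATX2*, *SDG2* and *ATXR5* passed through their VN libraries alone and *ATXR6* through its SC libraries alone, so these 4 could enter the test only on the side where they were higher. RNA was measured in 3 libraries of sperm cells (SCs) and 3 libraries of vegetative nuclei (VN) from mature pollen. Both come from 1 wild-type marker line that carries a GFP fusion of the histone gene *MGH3* under its own promoter, active in SCs, and H2B-mRFP under the *ACT11* promoter, used to sort VN. Plants were grown in short days and then moved to long days to flower, and the series' design text calls the replicates biological. The SC libraries hold whole cells and the VN libraries hold nuclei, so cell type and the part of the cell sampled cannot be told apart in any difference given here. The study's methods give the same number of sorted cells or nuclei for every library, but in such bulk libraries fewer cells with a transcript and less of it per cell cannot be told apart.

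Histone methyltransferases with a SET domain add methyl groups to lysines of histone H3, and the lysine decides which reader proteins bind. Methylation of lysine 4 (H3K4) by the trithorax-type ATX and SDG2 enzymes marks the start of active genes, and methylation of lysine 36 (H3K36) by SDG8 and its relatives marks their transcribed bodies. ATXR5 and ATXR6 place a single methyl group on lysine 27 (H3K27me1) of the replication-linked histone H3.1, which is known to keep heterochromatin silent and to prevent its extra replication. In pollen, the 2 sperm cells and the vegetative nucleus differ strongly in chromatin: sperm chromatin is compact and carries the male histone MGH3, while the vegetative nucleus is decondensed.

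Abundance is given in TPM (transcripts per 1000000 of a library, corrected for length), so levels can be compared between genes. Differences were tested with limma on log2(TPM + 1) over 10955 genes and are given as SC minus VN with their standard error (SE). A call needed a log2 fold change beyond 1 in either direction together with an adjusted p (Benjamini-Hochberg) below 0.01. The 10 most abundant genes held 42.8% to 49.9% of the TPM in SC libraries and 12.7% to 15.2% in VN libraries, and the median log2 fold change of all tested genes was -0.55. Between 12418 and 15112 genes were above 0 TPM in SC libraries and between 10202 and 15289 in VN libraries. The 10 sperm cell markers examined were all called higher in SCs and the 10 vegetative cell markers all higher in VN. These lists include *MGH3* and *ACT11*, whose promoters drove the sorting signals, and were chosen with earlier results of these data known. The calls are thus no independent check of the sorting. The 5 green tissue markers summed to 0.0253 to 0.533 TPM in SC libraries and 0 to 3.79 TPM in VN libraries, and the 5 tapetum markers to 0 to 0.607 TPM in SC libraries and 1.62 to 21.2 TPM in VN libraries. Of the tapetum markers 2 were tested and 1, *DYT1*, was called higher in VN (listed at 0 in all SC libraries, against 18.3, 1.62 and 16.7 TPM in VN). The VN were sorted from mature pollen on the H2B-mRFP signal, and the part of tapetum RNA in the VN values was not tested.

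*SDG4*, *SDG26*, *ATXR6* and *ATX3* were called higher in SCs, and *ATX2*, *SDG2* and *ATXR5* were called higher in VN. That makes 7 of the 9 called, against 64.9% of all tested genes, so the number of calls is near the background. By direction, 4 were higher in SCs, where 29.2% of tested genes were, and 3 were higher in VN, where 35.6% were. *ATX1* and *SDG8* did not pass the fold threshold. The TPM ranges of the cell types did not overlap for any of the 9 genes, as was the case for 77.3% of tested genes. Each of the 7 calls was kept in all 14 alternative settings or subsets of libraries, whereas *ATX1* and *SDG8* were each called in 4 of the 14.

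**Figure D1:**
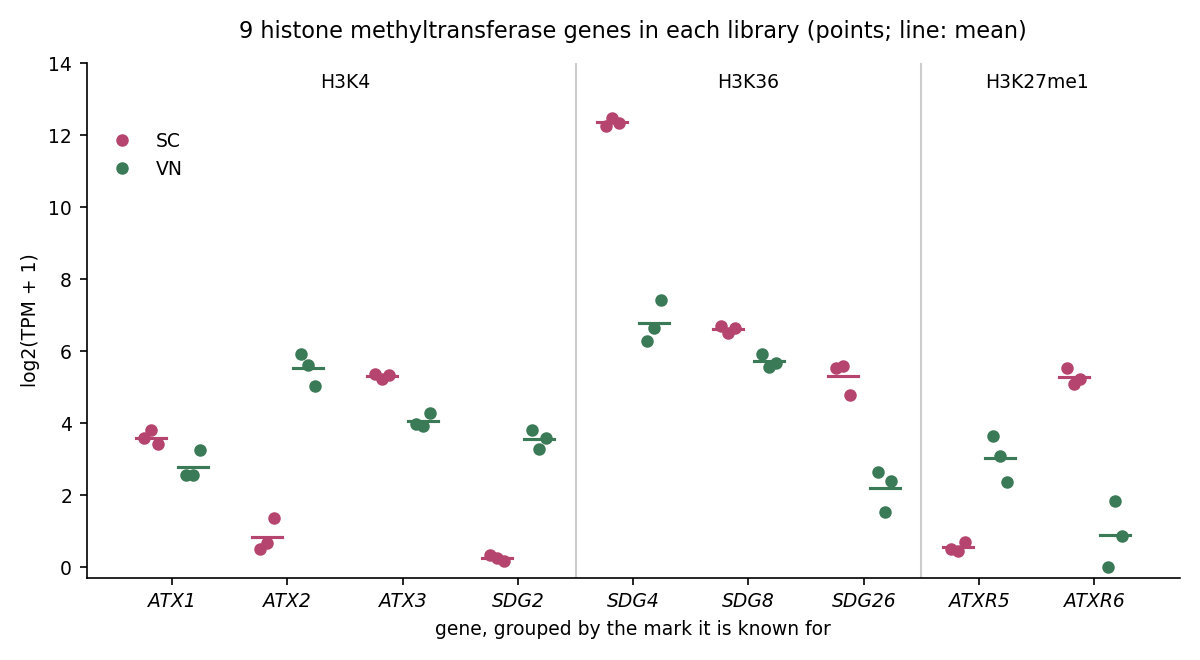
Level of the 9 methyltransferase genes as log2(TPM + 1) on the vertical axis, with a point for each of the 3 SC and 3 VN libraries and a line at their mean, and the genes grouped by the mark they are known for. *SDG4* in SCs stands far above all other values at 4928 to 5653 TPM, and *ATX2*, *SDG2* and *ATXR5* are the 3 genes whose VN points lie above their SC points.

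Among the H3K36 enzymes, *SDG4* dominated. It encodes a SET-domain protein of the ASH1 class with known roles in stamens and pollen, and it lies on the plus strand of chromosome 4 of TAIR10.1 from 15024444 to 15027672, with 11 exons. It was at 4928, 5653 and 5182 TPM in SC replicates 1, 2 and 3, against 76.8, 99.4 and 169 TPM in VN replicates 1, 2 and 3. The lowest SC library was thus far above the highest VN library, and the means differed 45.7-fold (5254 ± 368 TPM in SCs and 115 ± 47.9 TPM in VN, SD, n = 3 each). The log2 fold change was 5.58 (SE 0.27, limma adjusted p = 6.65e-07). By rank among all genes, *SDG4* was 26th, 19th and 20th in the SC libraries, and 1452nd, 1175th and 748th in the VN libraries. Its level in VN was 1.46%, 1.89% and 3.21% of the SC mean in VN replicates 1, 2 and 3. The 10 sperm cell markers were listed in the same VN libraries at a median of 1.29%, 0.464% and 4.82% of their SC means, with a range over markers and libraries of 0.0371% to 19.7%. The *SDG4* values in VN lay within the range of these markers in each VN library. The part of SC RNA in these VN values, and so in the VN rank, share and sums of *SDG4*, was not tested.

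The promoter window of *SDG4* runs from 250 bases before to 50 bases after the RefSeq start of the gene (chr4:15024194-15024493, plus strand, TAIR10.1). It is shown because this gene had the highest listed values of the members in both cell types. Capitals mark matches to AACCG, the core of the site bound by MYB proteins such as the sperm regulator DUO1, on either strand.

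SDG4: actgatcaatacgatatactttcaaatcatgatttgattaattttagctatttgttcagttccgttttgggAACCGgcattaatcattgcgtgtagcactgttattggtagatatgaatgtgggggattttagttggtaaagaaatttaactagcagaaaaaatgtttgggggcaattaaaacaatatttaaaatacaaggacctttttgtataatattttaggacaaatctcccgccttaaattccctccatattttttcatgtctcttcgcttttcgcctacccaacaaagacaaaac

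The window holds 1 match, 179 bases before the start, and no match to the E2F letters given below for *ATXR6*. AACCG occurs on either strand in 26.8% of the 27443 windows of protein-coding genes in the table, so a match is common and is only a description.

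*SDG8* encodes the main H3K36 methyltransferase of Arabidopsis, known for keeping the flowering repressor *FLC* active, and was the second most abundant member in both cell types. It was at 104, 88.9 and 99.6 TPM in SC replicates 1, 2 and 3, against 60.0, 46.5 and 49.7 TPM in VN replicates 1, 2 and 3. The 2 cell types did not overlap, but the log2 fold change of 0.90 (SE 0.20, limma adjusted p = 0.00361) was short of the threshold of 1. With quantile normalization it was 1.65 and with each library centred on its median 1.42, both called, and in these settings the median of all tested genes was -0.13 and -0.03. *SDG8* (chromosome 1, 29039922 to 29049454, minus strand) shares 296 bp with AT1G77290 on the opposite strand. Smart-seq2 does not record strand, and that gene was at 0.613 to 1.58 TPM in SC libraries and 0.250 to 2.55 TPM in VN libraries, far below *SDG8*.

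*SDG26*, whose product promotes flowering, separated the cell types more strongly. SC replicates 1, 2 and 3 had 45.5, 47.2 and 26.4 TPM, against 5.26, 1.91 and 4.26 TPM in VN replicates 1, 2 and 3. The means differed 10.4-fold (log2 fold change 3.11, SE 0.38, limma adjusted p = 1.22e-04), and SC replicate 3 was the lowest SC library. In VN replicates 1, 2 and 3 the gene stood at 13.2%, 4.80% and 10.7% of its SC mean. The sperm cell markers had medians of 1.29%, 0.464% and 4.82% there, and the highest marker was at 3.57%, 3.18% and 19.7%. *SDG26* was thus above all 10 markers in VN replicates 1 and 2 and within their range in VN replicate 3. The gene (chromosome 1, 28789698 to 28792719, minus strand) shares 188 bp with AT1G09905 on the opposite strand. AT1G09905 is not in the deposited table, so its level cannot be given, and whether its reads were counted under *SDG26* was not tested.

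Of the 4 H3K4 enzymes, *ATX3* was called higher in SCs, *ATX2* and *SDG2* were called higher in VN, and *ATX1* was not called. *ATX2*, a close relative of *ATX1*, was at 0.422, 0.602 and 1.55 TPM in SC replicates 1, 2 and 3, against 59.5, 47.9 and 31.7 TPM in VN replicates 1, 2 and 3. It was thus low in all SC libraries and the third most abundant member in VN, with means of 0.858 ± 0.606 TPM in SCs and 46.4 ± 13.98 TPM in VN (SD, n = 3 each), 54.0-fold higher in VN. The log2 fold change was -4.67 (SE 0.36, limma adjusted p = 7.76e-06). *ATX2* lies on the plus strand of chromosome 1 from 1754130 to 1761909.

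*SDG2* encodes the enzyme that places most of the H3K4 trimethylation in Arabidopsis and is known to be needed for male gametophyte development. It was at 0.264, 0.195 and 0.120 TPM in SC replicates 1, 2 and 3, against 12.9, 8.76 and 11.1 TPM in VN replicates 1, 2 and 3. The SC libraries were all under 1 TPM and the means differed 56.6-fold (log2 fold change -3.31, SE 0.30, limma adjusted p = 1.93e-05). The pseudocount of 1 holds the changes of such low genes down, and with 0.1 the log2 fold change was -5.25 for *SDG2* and -5.73 for *ATX2*. In SCs, *ATX2* stood at 0.911% to 3.34% and *SDG2* at 1.10% to 2.42% of the VN mean, where the 10 vegetative cell markers had medians of 2.17%, 2.46% and 2.61% in SC replicates 1, 2 and 3 and ranged from 1.31% to 9.83%. *SDG2* lies on the plus strand of chromosome 4 from 8651406 to 8662587 and, with a longest transcript of 7855 nt, is the longest of the 9 genes.

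*ATX3*, which acts redundantly with *ATX4* and *ATX5* in H3K4 di- and trimethylation, was called higher in SCs. It was at 40.1, 36.1 and 39.1 TPM in SC replicates 1, 2 and 3, against 14.6, 14.1 and 18.5 TPM in VN replicates 1, 2 and 3. The replicates were close in both cell types and the means differed 2.44-fold (log2 fold change 1.24, SE 0.23, limma adjusted p = 0.00125). Of its 3190 exonic 31-mers, 235 (7.37%) occur elsewhere in the genome, 127 of them in the F-box gene AT3G62500, so some reads could be assigned to either gene. AT3G62500, examined only after the values of the members were known, was at 11.7, 8.94 and 6.14 TPM in SC replicates 1, 2 and 3, and in VN it was at 0.690 TPM in replicate 1 and listed at 0 in replicates 2 and 3.

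*ATX1*, a homologue of trithorax known for activating floral homeotic genes, was at 11.0, 12.9 and 9.61 TPM in SC replicates 1, 2 and 3, against 4.87, 4.87 and 8.57 TPM in VN replicates 1, 2 and 3. The cell types did not overlap, but VN replicate 3 came close to the lowest SC library. The log2 fold change of 0.81 (SE 0.31, limma adjusted p = 0.0411) passed neither threshold. It was 1.04 and called without VN replicate 3, and 1.32 and 1.33 and called with quantile normalization and with centring. *ATX1* and *ATX2* share 15 exonic 31-mers, 0.518% of those of *ATX1*, so few reads could be exchanged between them.

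Summed over the 4 H3K4 members, SC libraries held 51.8, 49.8 and 50.4 TPM, against 91.97, 75.6 and 69.9 TPM in VN libraries. The 2 ranges did not overlap (exact permutation test, two-sided, p = 0.1, the smallest that 3 against 3 allow). The order rested on the scale, however: with the 10 highest genes of each library removed and the rest rescaled, the log2 ratio of the means turned to 0.16, against -0.64 in the values as deposited. Each member was counted under 1 mark only, and the order holds for these 4 members alone. The 3 other H3K4 methyltransferases (*ATX4*, *ATX5* and *ATXR7*) together held 49.1 to 55.4 TPM in SC libraries, against 17.4 to 23.1 TPM in VN libraries. The 3 H3K36 members summed to 5077, 5789 and 5308 TPM in SCs, against 142, 148 and 223 TPM in VN, a 31.6-fold difference of the means that was almost all *SDG4*. The 2 H3K27me1 members summed to 45.3, 33.6 and 37.1 TPM in SCs, against 11.5, 10.1 and 4.91 TPM in VN, 4.37-fold higher in SCs. The same exact test gave p = 0.1 for each of these sums, also after Benjamini-Hochberg adjustment over the 5 sums compared.

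*ATXR5* and *ATXR6* formed a mirrored pair. *ATXR6* (minus strand of chromosome 5, 8295110 to 8297159) was at 44.9, 33.3 and 36.5 TPM in SC replicates 1, 2 and 3. In VN it was listed at 0 in replicate 1 and was at 2.60 and 0.802 TPM in replicates 2 and 3. All SC libraries lay far above all VN values, and the log2 fold change was 4.38 (SE 0.46, limma adjusted p = 5.04e-05). *ATXR5* (minus strand of chromosome 5, 3038978 to 3041206) was at 0.426, 0.352 and 0.629 TPM in SC replicates 1, 2 and 3, against 11.5, 7.49 and 4.11 TPM in VN replicates 1, 2 and 3. It was below 1 TPM in all SC libraries, and its log2 fold change was -2.48 (SE 0.39, limma adjusted p = 5.24e-04). With a pseudocount of 0.1 the changes were 5.93 for *ATXR6* and -3.69 for *ATXR5*. Neither gene shares a 31-mer of its exons with another place in the genome, so reads of the 2 genes can be told apart at that length.

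The promoter windows of this pair are shown because the 2 genes have the same known activity and opposite patterns here. Capitals mark matches on either strand to AACCG and to the E2F letters TTTCCCGC, TTTGGCGC, TTTCGCGC or TTTGCCGC. E2F proteins activate genes of DNA replication, the phase in which *ATXR6* is known to be expressed. The windows are chr5:8297110-8297409 for *ATXR6* and chr5:3041157-3041456 for *ATXR5*, both on the minus strand of TAIR10.1 and printed in the direction of the gene.

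ATXR6: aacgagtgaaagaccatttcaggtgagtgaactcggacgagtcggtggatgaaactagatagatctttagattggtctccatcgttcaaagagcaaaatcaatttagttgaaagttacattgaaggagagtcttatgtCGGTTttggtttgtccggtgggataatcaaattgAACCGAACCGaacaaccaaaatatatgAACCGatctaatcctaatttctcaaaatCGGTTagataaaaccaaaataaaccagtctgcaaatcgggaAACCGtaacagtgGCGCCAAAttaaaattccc
ATXR5: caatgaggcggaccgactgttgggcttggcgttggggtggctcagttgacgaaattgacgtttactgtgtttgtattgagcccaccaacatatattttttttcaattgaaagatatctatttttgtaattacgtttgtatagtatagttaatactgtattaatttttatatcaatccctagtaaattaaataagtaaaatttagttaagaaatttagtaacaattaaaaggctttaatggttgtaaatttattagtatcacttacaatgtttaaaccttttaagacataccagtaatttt

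The *ATXR6* window holds 6 matches to AACCG, a pair of them directly joined, and 1 E2F match (TTTGGCGC in reverse) that begins 32 bases after the start. At least 6 AACCG matches occur in 0.412% of the 27443 windows and an E2F match in 1.76%. The *ATXR5* window holds neither. Of the other 7 members, *ATX1* has 1 match of each kind, *ATX2* 1 and *ATX3* 2 matches to AACCG, *SDG4* the 1 shown above, and *SDG2*, *SDG8* and *SDG26* none of either. The AACCG matches thus did not sort the members by cell type, since *ATX2* has one and *SDG26* has none. An E2F match was found in *ATX1* and *ATXR6* alone, and no link between matches and levels was tested.

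The balance between related genes was read within each library, as a log2 ratio of TPM + 1. The ratio of *ATXR6* over *ATXR5* was 5.01, 4.66 and 4.52 in SC replicates 1, 2 and 3, against -3.65, -1.24 and -1.50 in VN replicates 1, 2 and 3. The sign differed between the cell types in every library, with a difference of 6.86 between the means. That difference was 9.62 with a pseudocount of 0.1, 7.61 with the 10 highest genes of each library removed and 6.10 without VN replicate 1. For *ATX2* over *ATX1* it was -3.08, -3.12 and -2.06 in SCs, against 3.37, 3.06 and 1.77 in VN, a difference of -5.48 and again a change of sign. *SDG4* over *SDG8* was 5.56, 5.97 and 5.69 in SCs, against 0.35, 1.08 and 1.74 in VN. In this pair the same gene was ahead in all 6 libraries. *SDG4* over *SDG8* and 2 further pairs, *ATX4* over *ATX5* and *ASHH4* over *ASHH3*, were added after the values were seen, and none of these 3 overlapped between the cell types. The exact permutation test (two-sided) gave p = 0.1 for each of the 5 pairs, the smallest possible, and p = 0.1 after Benjamini-Hochberg adjustment over the 5.

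**Figure D2:**
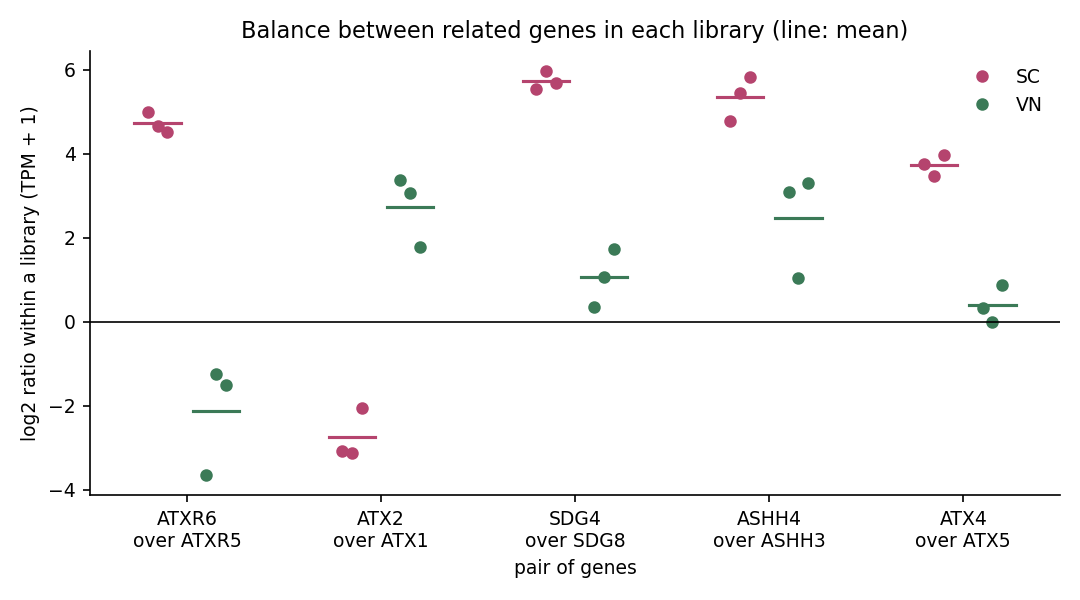
Log2 ratio of TPM + 1 between 2 related genes within each library, with a point for each SC and VN library and a line at the mean. *ATXR6* over *ATXR5* and *ATX2* over *ATX1* lie on opposite sides of 0 in SCs and VN, while *SDG4* exceeds *SDG8* in all 6 libraries.

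The make-up of the family followed from these values. *SDG4* held 95.2%, 96.3% and 96.0% of the summed TPM of the 9 genes in SC replicates 1, 2 and 3, against 31.3%, 42.6% and 56.7% in VN replicates 1, 2 and 3. These VN shares rest on *SDG4* values that lay within the range of the sperm cell markers in VN. In this sum of all 9, the shares of *ATX1*, *ATX2*, *ATX3*, *SDG2*, *SDG8* and *ATXR5* were higher in every VN library than in any SC library. Those of *SDG26* and *ATXR6* overlapped between the cell types (exact permutation p = 0.2 and 0.5, and 0.225 and 0.5 adjusted over 9 shares). Without *SDG4*, a sum chosen after the values were seen, the other 8 genes came to 214 to 246 TPM in SCs and 129 to 169 TPM in VN. The share of *SDG8* was 43.1% ± 3.17 over the 3 SC libraries and 36.3% ± 2.06 over the 3 VN libraries (SD), the largest share in every library but VN replicate 2, where *ATX2* held 35.7% and *SDG8* 34.7%. *ATX3*, *SDG26* and *ATXR6* each held between 12.4% and 21.5% of this sum in an SC library. In VN, *ATX2* held 24.6% to 35.7%, whereas it was at 0.171% to 0.726% in SCs. The share of *ATX1* overlapped between the cell types, at 4.47% to 5.89% in SCs, against 2.89% to 6.66% in VN (p = 0.6 in the two-sided exact permutation test, and 0.6 adjusted over 8 shares). The shares of the other 7 genes did not overlap (exact permutation p = 0.1 each, the smallest possible, adjusted p = 0.114). In this sum *ATX3* and *SDG8* held larger shares in SCs, the reverse of their order in the sum of all 9.

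**Figure D3:**
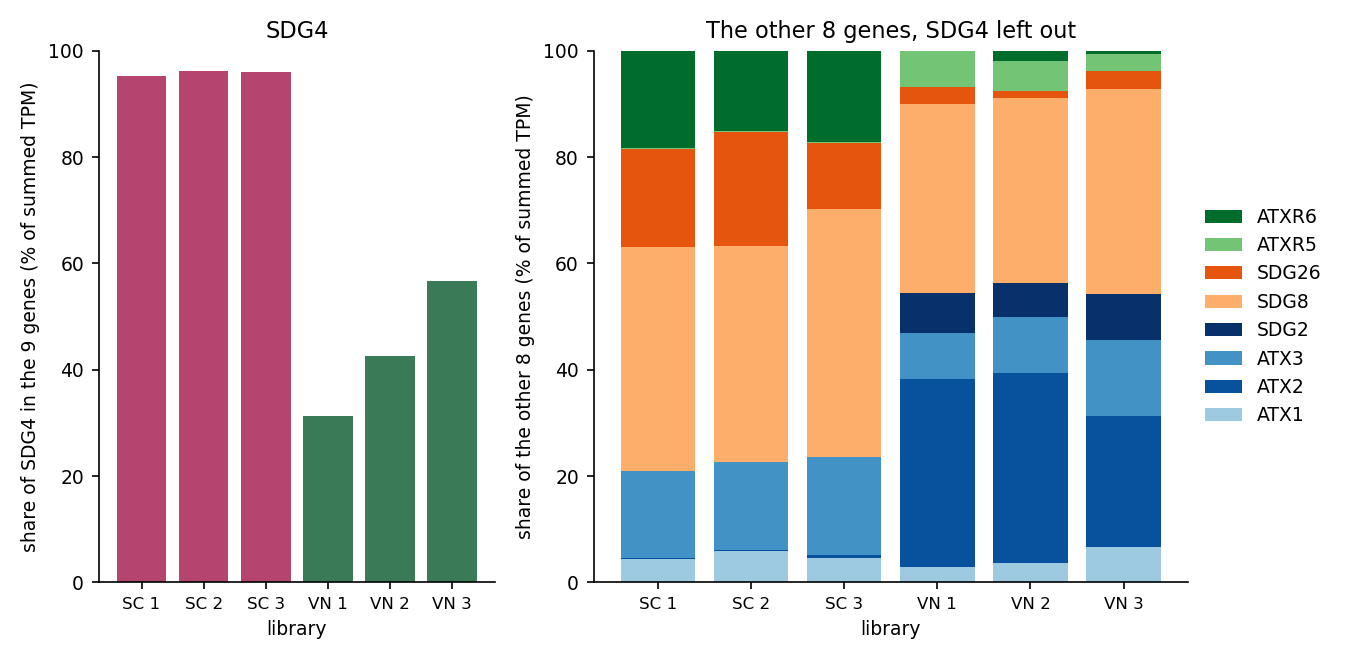
Share of *SDG4* in the summed TPM of the 9 genes (left, in percent, 1 bar per library, SC libraries before VN libraries) and shares of the other 8 genes with *SDG4* left out (right, stacked to 100%). *SDG4* takes over 95% in every SC library, and in the right-hand bars *ATX2* takes 0.171% to 0.726% in SC libraries and 24.6% to 35.7% in VN libraries.

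By level, the order in SCs was *SDG4*, *SDG8*, *SDG26*, *ATX3*, *ATXR6*, *ATX1*, *ATX2*, *ATXR5* and *SDG2*. The ranges of *SDG26*, *ATX3* and *ATXR6* overlapped from one to the next, as did those of *ATX2* and *ATXR5*, while all other neighbours were separate. In VN the order was *SDG4*, *SDG8*, *ATX2*, *ATX3*, *SDG2*, *ATXR5*, *ATX1*, *SDG26* and *ATXR6*, with the *SDG4* values within the range of the sperm cell markers. There *SDG8* and *ATX2* overlapped, and so did each neighbouring pair from *SDG2* down to *ATXR6*.

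Genes that work with these enzymes were read from the same fit. Of 35 genes in 6 lists, 25 were tested, of which 10 were called higher in SCs and 6 higher in VN, with a median log2 fold change of 1.13 against -0.55 for all tested genes. These 16 of 25 are close to the 64.9% called among all tested genes, of which 29.2% were higher in SCs and 35.6% in VN, and 9 of the 16 called genes passed the filter through the higher cell type alone. Among the other H3K4 methyltransferases, *ATX4* was at 52.5, 45.8 and 50.1 TPM in SC libraries, against 9.29, 10.7 and 13.9 TPM in VN libraries (log2 fold change 2.05, SE 0.24, limma adjusted p = 9.53e-05). *ATX5* went the other way, with 2.97, 3.21 and 2.23 TPM in SCs, against 7.16, 10.7 and 7.07 TPM in VN (log2 fold change -1.28, adjusted p = 0.00489), and was called in 4 of the 14 alternatives. *ATXR7* was under the filter. In the trio of *ATX3*, *ATX4* and *ATX5*, 2 genes were thus higher in SCs and 1 was higher in VN.

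*SDG4* was not the only gene of the H3K36 class that was abundant in SCs. *ASHH4* was at 722, 824 and 715 TPM in SC replicates 1, 2 and 3, against 7.47, 1.06 and 47.6 TPM in VN replicates 1, 2 and 3 (log2 fold change 6.31, SE 0.96, limma adjusted p = 4.28e-04). VN replicate 3, where the sperm cell markers were also highest, had the highest value of the 3. The change was 7.49 without VN replicate 3 and 5.21 without VN replicate 2. *ASHH3* was at 25.2, 17.8 and 11.5 TPM in SCs, and in VN it was listed at 0 in replicates 1 and 2 and was at 3.90 TPM in replicate 3 (log2 fold change 3.43, limma adjusted p = 0.00146), a call that held in 12 of the 14 alternatives. It passed the filter through SCs alone, and its change was 4.20 without VN replicate 3 and 5.67 with a pseudocount of 0.1. *ATXR2* was under the filter. *MRG1*, which encodes a reader of H3K4 and H3K36 methylation, was at 7889, 6900 and 6770 TPM in SCs, against 121, 203 and 199 TPM in VN (log2 fold change 5.39, SE 0.21, limma adjusted p = 3.25e-07). Its relative *MRG2* was at 0.598 to 3.06 TPM in SCs and 0 to 0.798 TPM in VN and was not called.

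Of 4 core subunits that H3K4 methyltransferases need in COMPASS-type complexes, *WDR5A*, *WDR5B* and *ASH2R* were called higher in SCs, a direction that 29.2% of all tested genes took, and no difference over the list as such was tested. *WDR5A* was at 39.4, 42.4 and 39.7 TPM in SCs, against 1.52, 1.55 and 0.392 TPM in VN (log2 fold change 4.32, limma adjusted p = 6.39e-06). *WDR5B* was at 135 to 162 TPM in SCs and 8.35 to 13.1 TPM in VN, and *ASH2R* at 25.7 to 31.8 TPM in SCs and 0 to 0.376 TPM in VN. *RBL* was at 1.41 to 3.08 TPM in SCs and 0.0572 to 2.64 TPM in VN and was not called. *WDR5A* and *ASH2R* were thus under 2 TPM in every VN library. Of the 6 subunits of the PAF1 complex, which links these marks to transcription, *CDC73* was called higher in SCs, at 4.07 to 6.99 TPM and listed at 0 in all VN libraries. *ELF7*, *ELF8* and *VIP5* were not called, and *VIP3* and *VIP4* were under the filter.

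Of 9 enzymes that remove H3K4 methylation 7 were tested, and 1 was called higher in SCs and 4 higher in VN, against 29.2% and 35.6% of all tested genes. All 4 that were higher in VN (*JMJ16*, *JMJ17*, *LDL3* and *FLD*) were under 1 TPM in every SC library and passed the filter through VN alone. *JMJ18* was at 224, 203 and 265 TPM in SC libraries, against 45.6, 55.3 and 37.4 TPM in VN libraries (log2 fold change 2.31, SE 0.22, limma adjusted p = 2.58e-05). *JMJ16* was at 0 to 0.0615 TPM in SCs and 9.99 to 12.97 TPM in VN, and *JMJ17* at 0.202 to 0.457 TPM in SCs and 16.4 to 22.8 TPM in VN. *LDL3* was at 0.397 to 0.809 TPM in SCs and 9.62 to 13.2 TPM in VN, and *FLD* was listed at 0 in all SC libraries and was at 0.925 to 1.78 TPM in VN. The call of *FLD* was kept in 6 of the 11 alternatives in which it was tested. *JMJ14* (log2 fold change 1.35, limma adjusted p = 0.0255) and *JMJ15* (1.26, limma adjusted p = 0.0116) passed the fold threshold but were not called. *JMJ14* was called higher in SCs in 3 and *JMJ15* in 6 of the 14 alternatives, so the count by direction depended on the setting. *LDL1* and *LDL2* were listed at 0 in all 6 libraries.

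Genes for the histone that ATXR5 and ATXR6 methylate had low or zero listed values. Of the 5 genes for histone H3.1, *HTR3* and *HTR13* were listed at 0 in all 6 libraries and *HTR9* in all but 1. *HTR2* was listed at 0 in all SC libraries and was at 2.15, 3.34 and 6.31 TPM in VN (called higher in VN, limma adjusted p = 8.81e-04). *HTR1* was at 1.04 to 2.22 TPM in SCs and 0 to 10.3 TPM in VN and was not called. These genes are close copies of each other, so the split of reads between them is uncertain. *PCNA1*, for the replication clamp that ATXR5 and ATXR6 are known to bind, was at 4.98, 4.13 and 3.81 TPM in SCs and listed at 0 in all VN libraries (called higher in SCs, limma adjusted p = 1.16e-04). *HTR2* passed the filter through VN alone and *PCNA1*, like *CDC73* and *ASH2R*, through SCs alone. *PCNA2* was not called, and *TSK*, whose product reads H3.1 without the methyl group, was under 1 TPM in all 6 libraries. *ATXR6* in SCs, at 33.3 to 44.9 TPM, was thus above all 5 of these histone genes and both clamp genes in every SC library.

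**Figure D4:**
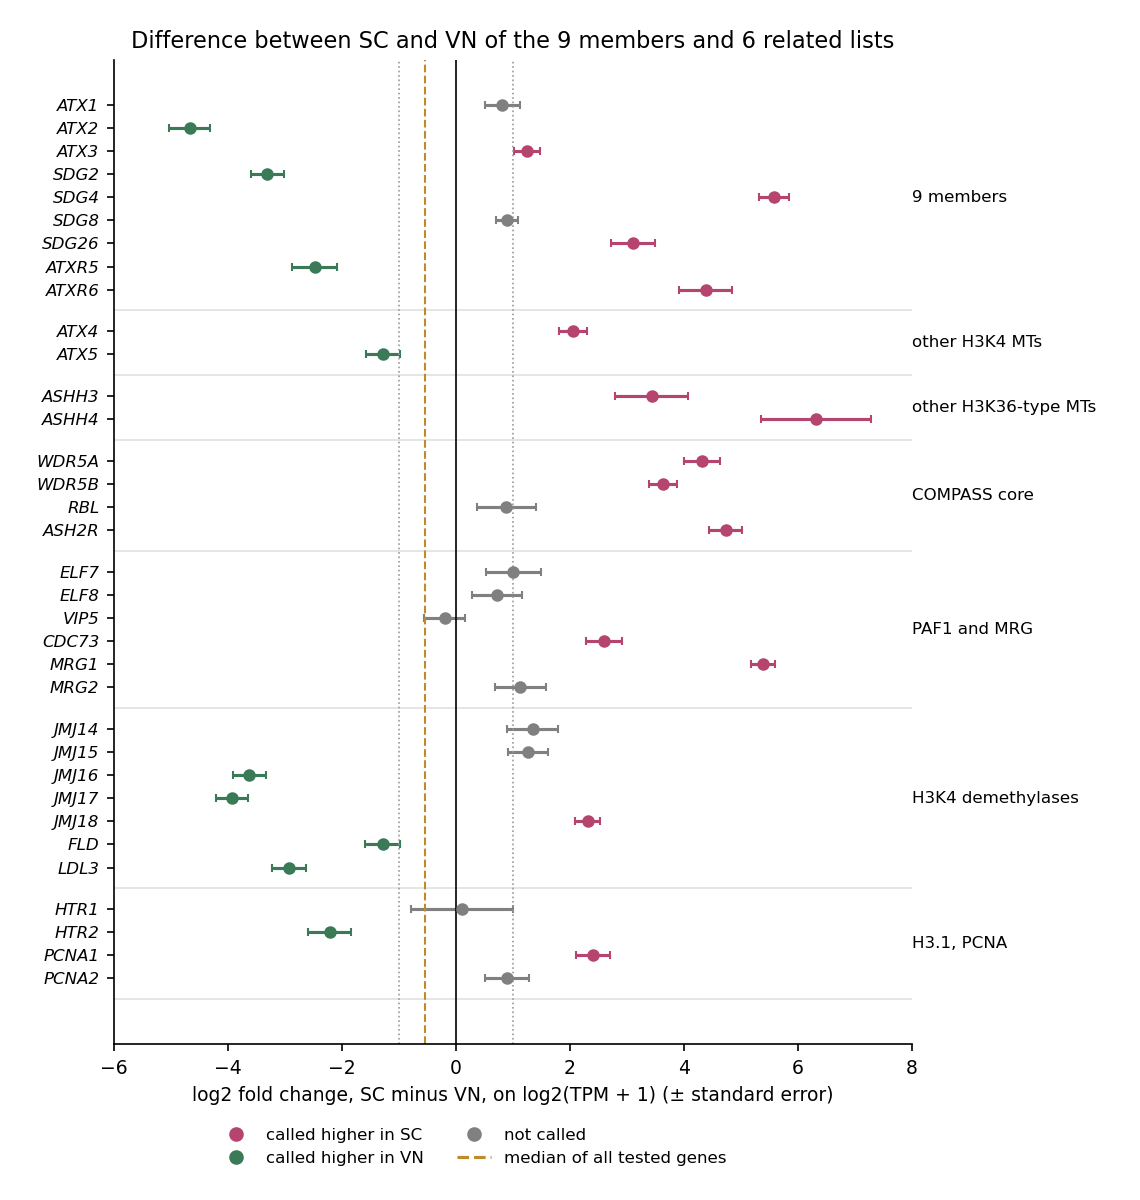
Log2 fold change (SC minus VN, on log2(TPM + 1), with the standard error) of the 9 members and of the tested genes of the 6 related lists (MTs, methyltransferases), coloured by call. Dotted lines mark the fold threshold of 1 in size and the dashed line the median of all tested genes at -0.55, and within the members the points range from -4.67 for *ATX2* to 5.58 for *SDG4*.

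**Figure D5:**
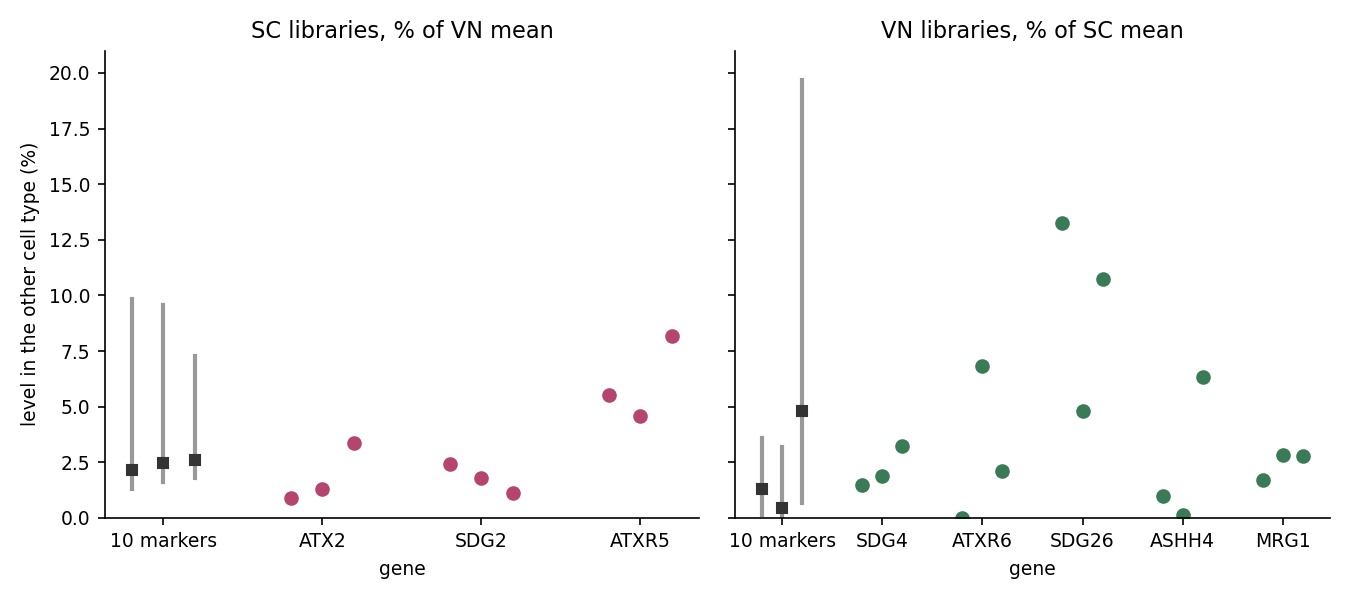
Level of a gene in the libraries of the other cell type, in percent of its mean in the cell type where it is higher, with grey bars for the range and squares for the median of 10 markers per library. In SC libraries *ATX2* and *SDG2* lie at 0.911% to 3.34% of the VN mean, below or within the bars of the markers. *ATXR5* at 4.56% to 8.15% lies above the marker medians, within the bars in SC replicates 1 and 2 and above the bar in replicate 3. In VN libraries *SDG4* lies at 1.46% to 3.21% of the SC mean, within the bars, and *SDG26* lies above the bars in VN replicates 1 and 2.

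At these low levels the values of a gene and those of RNA from the other cell type cannot be told apart. *ATXR5* stood in SCs at 5.52%, 4.56% and 8.15% of its VN mean in replicates 1, 2 and 3, above the marker medians of 2.17%, 2.46% and 2.61%. The highest marker was at 9.83%, 9.58% and 7.25%, so *ATXR5* was above all 10 markers in SC replicate 3 only. *ATXR6* was listed at 0 in VN replicate 1, where the marker median was 1.29%. In VN replicates 2 and 3 it stood at 6.81% and 2.098% of its SC mean, against marker medians of 0.464% and 4.82%. The value in VN replicate 2 was above the highest of the 10 markers (3.18%). In VN replicate 3 it was within their range of 0.681% to 19.7%. The part of RNA from the other cell type in these values, and in the VN values of *SDG4*, was not tested.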

How the data were processed

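RNA of SCs and VN sorted from mature pollen was prepared with Smart-seq2. The authors aligned reads to TAIR10 (Hisat2), built and merged transcript models from these and other tissues (Stringtie), kept Araport11 names for known ones and estimated TPM with Salmon. The submitters' processing notes also name Trim Galore. How transcripts were summed into genes is not given in the sources used here. The deposited table holds TPM per gene and library and no read counts, so the depth behind each value cannot be read from it and counting error cannot be stated. Of 373 genes described as ribosomal proteins, 131 to 258 were at 0 in a library, and a value of 0 is therefore written as listed at 0.

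Groups came from the sample titles. The filter was 1 TPM or more in 2 or more libraries, and the test was limma 3.58.1 in R 4.3.3 (eBayes with a mean-variance trend, two-sided, Benjamini-Hochberg adjustment over 10955 genes), after a test on simulated data. The authors' thresholds were used. Their limma run, in the 3D RNA-seq App, started from Salmon output with a filter on CPM and trimmed mean of M-values scaling, which need counts and were replaced by the TPM filter and log2(TPM + 1). Sums, shares and ratios were compared with exact permutation tests (scipy 1.17.1). Positions, promoter windows and 31-mers are from RefSeq TAIR10.1. The alternatives were a pseudocount of 0.1, no filter, a stricter filter, quantile normalization, centring, removal of the 10 highest genes, no trend, the replicate number as a block and each library left out. The genes named are the 9 members and those of the related and marker lists. Members and lists were chosen with earlier results of these data known. Sorting was done in batches that the labels do not name, so within-batch values cannot be given.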

Additional observations from a re-analysis of the deposited data

How the results depend on the processing

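Over the 14 alternatives, the members called numbered 7 to 9, and the calls and directions of *SDG4*, *SDG26*, *ATXR6*, *ATX3*, *ATX2*, *SDG2* and *ATXR5* were kept in all of them. *ATX1* was called with quantile normalization (1.32), after centring (1.33) and with the 10 highest genes removed (1.59), and *SDG8* in the same settings (1.65, 1.42 and 1.70), which moved the median of all tested genes to -0.13, -0.03 and 0.07. Leaving out each library gave 0.69 to 1.04 for *ATX1*, called without VN replicate 3, and 0.82 to 1.002 for *SDG8*, called without VN replicate 1. A pseudocount of 0.1 moved the difference of the log2 ratio of *ATXR6* over *ATXR5* to 9.62 and of *ATX2* over *ATX1* to -6.64. Leaving out each library gave 6.10 to 7.31 and -5.96 to -5.17, and removal of the 10 highest genes, added for these ratios after seeing the data, 7.61 and -5.97. With the 10 highest genes removed, the log2 ratio of the summed TPM was 0.16 for the H3K4 members, reversed, 5.78 for H3K36 and 2.94 for H3K27me1. *VIP5* turned positive with quantile normalization (0.29), centring (0.32) and the 10 highest genes removed (0.37), and ranged from -0.45 to 0.080 as libraries were left out, and *HTR1* from -0.47 to 1.27. Calls among the related genes numbered 14 to 18 in the settings on all libraries and 13 to 17 with a library left out. Same-numbered libraries correlated at 0.01, -0.03 and -0.02 in their deviations from the group means, and no library correlated best with its own number. Such values cannot show whether same-numbered libraries shared a sorting batch, and the main fit did not pair them. With the replicate block, 6927 genes were called in place of 7105, with 7 members and 14 related genes among them. Without a filter 5845 of 22718 genes were called. Fold changes of genes under 1 TPM in one cell type depend on the pseudocount.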
